A study of Homo sapiens with 3 samples.

Results

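Chemokines and their receptors were followed in NB4 cells in which ARID1B was silenced. The genes were chosen by name alone, as chemokine ligands (CCL, CXCL, XCL and CX3CL with a number, PF4 and PPBP) and receptors (CCR, CXCR, XCR, CX3CR and ACKR with a number). Pseudogenes, antisense genes and CCRL genes were left out. Of 57773 gene IDs in the count table, 52338 could be named and 57 were such genes. They comprised 16 CC ligands, 19 CXC, XC or CX3C ligands, 10 CC receptors, 8 CXC, XC or CX3C receptors and 4 atypical receptors. A further 11 named ligands, CCL3, CCL4 and CCL5 among them, matched no row by ID and were not analysed here.

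NB4 is a cell line from a human acute promyelocytic leukaemia, and ARID1B belongs to BAF, a complex that moves nucleosomes. All 3 libraries were of polyadenylated RNA from NB4 cells grown in RPMI 1640 with 10% FBS, each with its own short hairpin RNA (shRNA). One shRNA is a non-targeting control, and hairpins 2 and 3 are directed against human ARID1B. No label speaks of separate cultures. The p-values reflect the spread between the libraries of hairpins 2 and 3, where hairpin, culture and technical differences cannot be told apart. They need not reflect variation between biological replicates. How long after infection RNA was taken is not stated either. ARID1B counts were 5268 with the control hairpin, 2209 with hairpin 2 and 2234 with hairpin 3, so both knockdown libraries held less of the targeted transcript. Library totals lay between 59997475 and 62954803 counts. Of 6 promyelocyte markers, MPO, AZU1, PRTN3, CTSG and CD33 each had at least 1672 counts in every library, while ELANE, neutrophil elastase, had 10, 4 and 1.

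Chemokines are small secreted proteins that bind to sugar chains on cells and matrix and guide migrating leukocytes. They are named by the spacing of their first cysteines, and most act on receptors coupled to inhibitory G proteins. Atypical receptors bind chemokines without that coupling and mostly take them up for degradation. In myeloid cells, CCR2 is the receptor of classical monocytes for CCL2, CXCR2 that of neutrophils for CXCL8 and related ligands, and CXCR4 holds immature cells in the marrow through CXCL12.

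For the members whose levels differed and that had an entry in the RefSeq promoter table, the sequence before the annotated start is described. Counts per gene do not show which start the transcripts counted here used. Of 57 members 41 had an entry, among them 5 of the 7 that passed the test described below. The following are the 250 bases before the start of CXCL8, CCR1 and CXCR2, which were higher, and of CCR2, which was lower (RefSeq, build GRCh38.p14). Capitals mark matches, on either strand, to TGANTCA (an AP-1 spelling), TTGCNNAA (C/EBP), GGNNNTTCC (a shortened kappaB spelling), AGGAAGT (ETS factors) or AGATAA (a spelling for factors of the GATA family).
CXCL8, chr4:73740319-73740568, plus strand: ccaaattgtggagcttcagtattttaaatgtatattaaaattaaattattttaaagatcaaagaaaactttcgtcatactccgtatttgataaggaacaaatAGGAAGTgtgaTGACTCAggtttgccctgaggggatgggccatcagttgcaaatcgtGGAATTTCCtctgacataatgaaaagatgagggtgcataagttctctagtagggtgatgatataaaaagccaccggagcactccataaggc
CCR1, chr3:46208314-46208563, minus strand: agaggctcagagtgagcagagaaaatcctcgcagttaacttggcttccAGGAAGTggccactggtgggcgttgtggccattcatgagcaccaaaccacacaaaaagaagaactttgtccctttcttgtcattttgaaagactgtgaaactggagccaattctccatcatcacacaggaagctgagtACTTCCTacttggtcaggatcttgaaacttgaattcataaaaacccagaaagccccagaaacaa
CXCR2, chr2:218125778-218126027, plus strand: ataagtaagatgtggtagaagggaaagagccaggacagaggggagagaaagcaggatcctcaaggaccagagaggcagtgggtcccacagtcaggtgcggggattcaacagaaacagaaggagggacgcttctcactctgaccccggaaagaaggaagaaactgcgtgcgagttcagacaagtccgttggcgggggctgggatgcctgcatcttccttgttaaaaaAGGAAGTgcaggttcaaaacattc
CCR2, chr3:46353861-46354110, plus strand: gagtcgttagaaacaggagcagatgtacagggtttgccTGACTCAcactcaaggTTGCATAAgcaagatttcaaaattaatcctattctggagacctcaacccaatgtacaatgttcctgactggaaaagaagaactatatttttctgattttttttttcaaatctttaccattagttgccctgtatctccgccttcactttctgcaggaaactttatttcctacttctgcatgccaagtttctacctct

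The CXCL8 stretch held an ETS match from base 148 to 142 before the start, an AP-1 match from 137 to 131 and a kappaB match from 91 to 83. CCR1 held 2 ETS matches, from 202 to 196 and from 64 to 58, the second on the other strand. CXCR2 held an ETS match from 24 to 18. The stretch of CCL22, the other higher member with an entry, is not printed and held an ETS match from 135 to 129. CCR2 held an AP-1 match from 212 to 206 and a C/EBP match from 196 to 189. Among all 35116 promoter entries, 7.01% held the ETS spelling in these 250 bases, 6.57% the AP-1, 9.05% the C/EBP, 17.1% the kappaB and 9.17% the GATA spelling. Among the 24 entries of the members tested below, 10 held the ETS, 4 the AP-1, 5 the C/EBP, 5 the kappaB and 0 the GATA spelling. A match describes letters only and does not show a bound site.

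With ARID1B silenced, 6 members rose and 1 fell. The ligands CCL2, CCL22 and CXCL8 and the receptors CCR1, CCR8 and CXCR2 were higher, and CCR2 was lower. Only 23 of the 57 members had enough counts to be tested (at least about 10 in 1 library, by edgeR's filterByExpr), so 7 of 23 were called at a Benjamini-Hochberg adjusted p under 0.05 in edgeR's quasi-likelihood test. Over all 20382 genes tested, 8.70% were called, 5.49% higher and 3.21% lower. Of the 23 tested members, 8 reached the filter through the knockdown libraries alone (CCL7, CCL22, CCR3, CCR6, CCR7, CCR8, CXCL3 and CXCR6), so a count over the tested members is no evidence of a direction. Among the 15 members with at least 10 control counts, 4 rose and 1 fell. The median log2 fold change was 0.34 over these 15 and 0.69 over the 23, against -0.01 over all genes tested. More cells of a type and more RNA per cell cannot be told apart in such bulk samples. The test had 1 residual degree of freedom, from the difference between the hairpins, and assumed that the lone control library varied like them. The spread of each gene was drawn towards that of all genes, with 14.8 prior degrees of freedom. DESeq2 called 4 of the 7 members (6.25% of all genes with an adjusted p there) and edgeR with robust empirical Bayes another set of 4 (7.23% of all genes). With no filter on low counts edgeR called 0 genes (3218 at an unadjusted p under 0.05), so no call of a member or pathway gene held there. The share of higher genes among all calls moved with the method and the scaling. It was 63.1% in edgeR with TMM factors, 58.6% with library size alone, 53.8% with upper quartile factors (991 higher and 850 lower) and 73.7% in DESeq2.

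**Figure D1:**
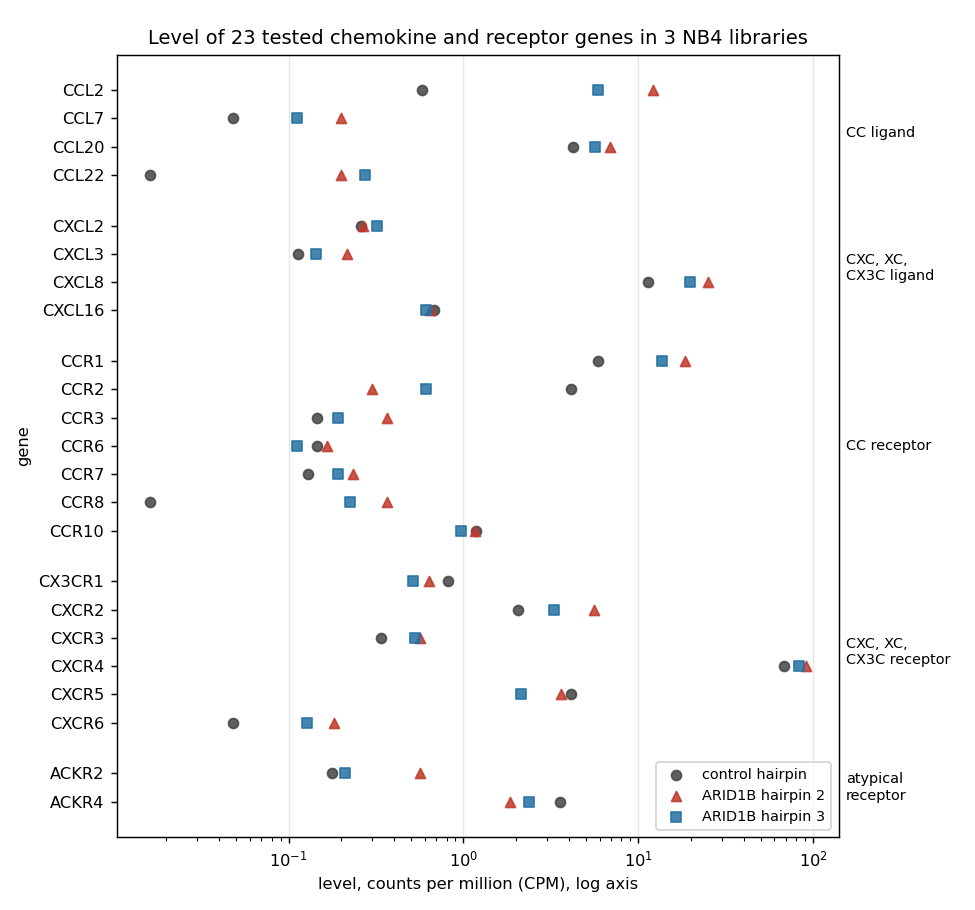
Level of each of the 23 tested genes in CPM (counts scaled to a common library total, log axis), by role, in the control library (circles) and under hairpins 2 (triangles) and 3 (squares). CCL2 and CCR2 lie on opposite sides of their control values, and CXCR4 stands highest in all 3 libraries, from 68.4 to 90.5 CPM.

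**Figure D2:**
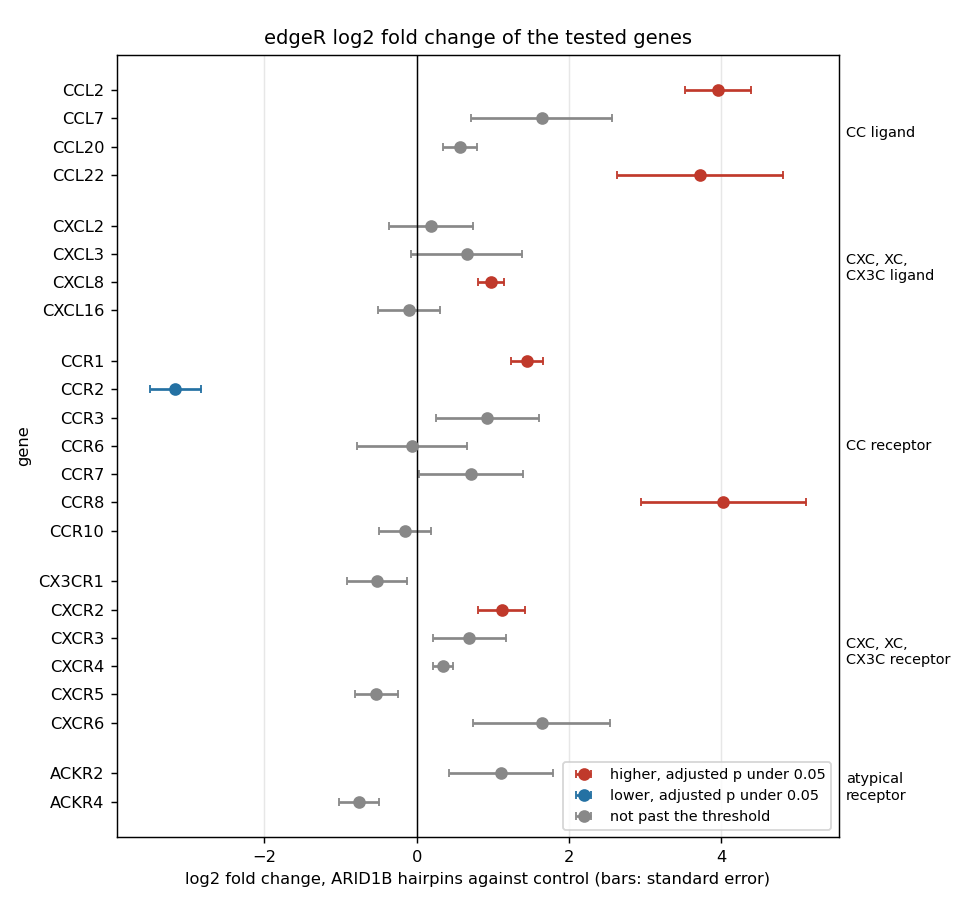
Log2 fold change of the 23 tested genes in edgeR, both ARID1B hairpins against the control, with standard errors as bars. Red genes were higher, the blue gene, CCR2, was lower, and grey genes did not pass the threshold; CCL22 and CCR8 had 1 control count each and CCL7 and CXCR6 had 3, so their fitted values are imprecise.

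Of 16 CC ligands 4 were tested, and CCL2 and CCL22 rose. CCL2, which attracts monocytes, had 36 control counts, then 734 under hairpin 2 and 366 under hairpin 3, or 0.58, 12.2 and 5.87 CPM. Both knockdown libraries thus lay far above the control, and hairpin 2 above hairpin 3. Relative to the control, hairpin 2 gave a ratio of 21.1 (15.1 to 30.3, exact 95% counting interval) and hairpin 3 one of 10.1 (7.18 to 14.7). The fitted log2 fold change was 3.96 ± 0.436 (SE), with an adjusted p of 2.8e-05 in edgeR. With robust empirical Bayes the call was lost (adjusted p = 0.139 in edgeR, from 3.6e-15 to 0.47 over the alternatives). CCL22, a ligand of CCR4 made mainly by dendritic cells and macrophages, had 1, 12 and 17 counts, a ratio of 12.4 under hairpin 2 (1.83 to 530) and 16.9 under hairpin 3 (2.65 to 708). It passed narrowly (edgeR adjusted p = 0.0443), did not pass with robust empirical Bayes (0.0519) and got no adjusted p from DESeq2, and the alternatives ran from 0.0309 to 0.47.

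CCL20, the ligand of CCR6, had 262, 413 and 352 counts. Both knockdown libraries were above the control, by a ratio of 1.63 (1.39 to 1.91) and 1.34 (1.14 to 1.58), but the difference did not pass in edgeR (log2 0.57 ± 0.219, adjusted p = 0.137). CCL7, a monocyte attractant and the neighbour of CCL2 in the ligand cluster on chromosome 17, had 3, 12 and 7 counts. Its ratio was 4.13 under hairpin 2 (1.11 to 22.8) and 2.32 under hairpin 3 (0.531 to 13.9), and it did not pass (edgeR adjusted p = 0.347). The other cluster genes CCL11, CCL8, CCL13 and CCL1 had at most 2 counts in any library. CCL2 was therefore the only gene of that cluster, among the 6 with a row, with more than 12 counts.

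Among 19 CXC, XC or CX3C ligands 4 were tested, and CXCL8 rose. CXCL8 (interleukin 8), the main neutrophil attractant, had 705 control counts against 1500 and 1237 under hairpins 2 and 3, or 11.4, 24.9 and 19.8 CPM. Both knockdown libraries exceeded the control, hairpin 2 by a ratio of 2.20 (2.01 to 2.41) and hairpin 3 by 1.75 (1.59 to 1.92). The log2 fold change was 0.98 ± 0.173 (edgeR adjusted p = 0.00168), and it was not past a fold change of 1.5 when tested against that size. CXCL2 and CXCL3, which share the receptor CXCR2 with CXCL8, had 16, 16 and 20 and 7, 13 and 9 counts. Neither passed, with log2 fold changes of 0.19 ± 0.555 and 0.66 ± 0.729. CXCL16, a transmembrane ligand of CXCR6, had 42, 39 and 38 counts, 3 nearly equal values (-0.10 ± 0.404).

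The remaining ligands with a row had few or no counts. Of the 27 untested ligands, 14 had 0 counts in all libraries, and no other exceeded 9 counts in any library. The highest of them, CCL27, had 7, 9 and 8 counts. These are uncertain, as 97.7% of its exon length also belongs to the gene model AL162231.4 on the same strand. That model had 52 counts over the 3 libraries. A count of 0 allows up to 0.0483 CPM in the control library and 0.0499 and 0.0481 CPM under hairpins 2 and 3. CXCL12, the ligand of CXCR4, CXCL1 and CXCL5, ligands of CXCR2, and the platelet chemokine PF4 were among those at 0. PPBP, another platelet chemokine, had 1, 2 and 2 counts. CXCL10, an interferon-induced ligand of CXCR3, had 7, 2 and 1 counts and CXCL9 had 0. At this depth no difference in these genes was detectable.

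Of 7 tested CC receptors 2 rose and 1 fell. CCR2, which brings monocytes out of the marrow, had 257 control counts, then 18 under hairpin 2 and 38 under hairpin 3, or 4.14, 0.299 and 0.61 CPM. Both knockdown libraries were far below the control, and hairpin 2 was lower than hairpin 3. Its ratio to the control was 0.0723 (0.0422 to 0.117) with hairpin 2 and 0.147 (0.102 to 0.208) with hairpin 3. The log2 fold change was -3.17 ± 0.336, with an adjusted p of 1.9e-05 in edgeR. The call also held in DESeq2 and with robust empirical Bayes.

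CCR1, a receptor for CCL3, CCL5, CCL7 and related ligands on monocytes and neutrophils, had 365, 1110 and 850 counts, or 5.88, 18.5 and 13.6 CPM. It rose by a ratio of 3.14 under hairpin 2 (2.79 to 3.54) and 2.32 under hairpin 3 (2.05 to 2.63). The log2 fold change was 1.45 ± 0.205 (edgeR adjusted p = 2.3e-04), and the call held in DESeq2 and with robust empirical Bayes. CCR8, known from T helper and regulatory T cells, had 1, 22 and 14 counts, a ratio of 22.7 under hairpin 2 (3.67 to 937) and 13.9 under hairpin 3 (2.12 to 590). It passed in edgeR (adjusted p = 0.0281), also with robust empirical Bayes, and got no adjusted p from DESeq2.

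The other tested CC receptors did not pass. CCR10, a receptor of skin-homing lymphocytes, had 73, 70 and 60 counts. Of its exon length 16.8% overlaps AC100793.2 on the other strand, which had 63 counts over the 3 libraries. CCR3, the eosinophil receptor for eotaxins, had 9, 22 and 12 counts and a log2 fold change of 0.93 ± 0.675. CCR7, which guides cells to lymph nodes, had 8, 14 and 12, and CCR6 had 9, 10 and 7. The CCR6 counts are uncertain, as 69.2% of its exon bases also belong to the gene model Z94721.2, which had 2845 counts over the 3 libraries. CCR4, the receptor for CCL17 and CCL22, had 1, 3 and 3 counts, and CCR9 had 1, 0 and 3.

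**Figure D3:**
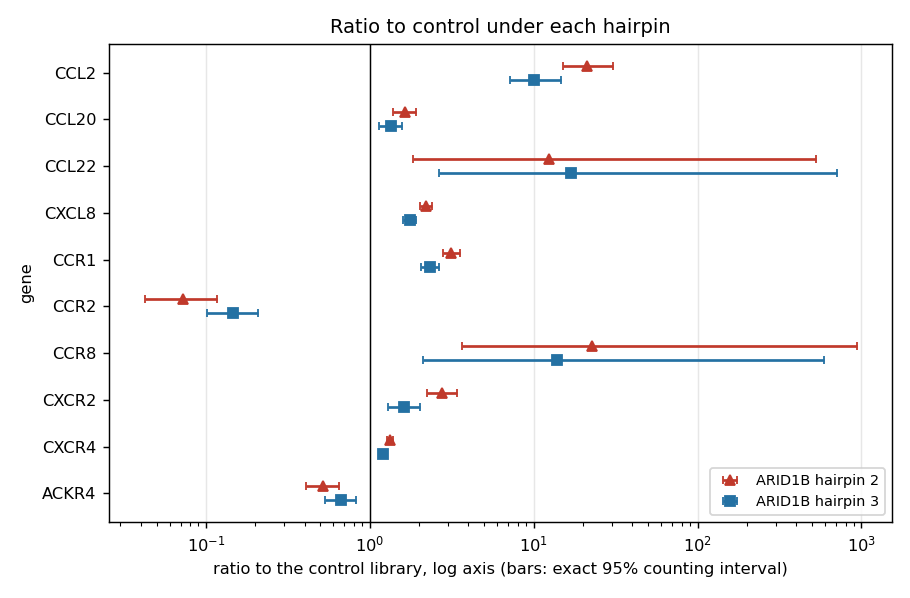
Ratio to the control library (log axis) under hairpin 2 (triangles) and hairpin 3 (squares) for the 7 genes that passed the test and for CCL20, CXCR4 and ACKR4, which did not, with exact 95% counting intervals as bars. CCR2 and ACKR4 lie below 1 under both hairpins, and the intervals of CCL22 and CCR8 are wide because the control had 1 count.

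Several of these receptor genes lie in a cluster on chromosome 3. Sorted by their lower coordinates in GENCODE 29, the protein-coding genes from CCR9 to CCR2 are CCR9, FYCO1, CXCR6, XCR1, CCR3, CCR1 and CCR2. Where each gene ends was not used, so this order does not show which genes are direct neighbours. CCR1 rose and CCR2 fell. FYCO1, the autophagy adaptor within the row, had 2249, 1941 and 2195 counts and did not pass. CXCR6 had 3, 11 and 8 counts (edgeR adjusted p = 0.336) and XCR1, the receptor for XCL1 and XCL2, had 4, 0 and 0. The genes of the row thus did not move together.

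**Figure D4:**
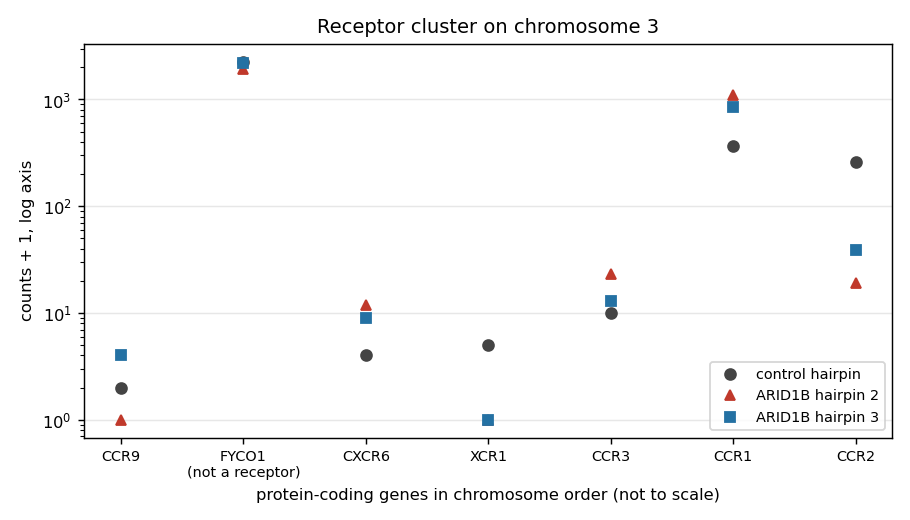
Counts plus 1 (log axis) of the protein-coding genes from CCR9 to CCR2 in the receptor cluster on chromosome 3. Genes stand in the order of their lower coordinates, not to scale. Circles are the control library, triangles hairpin 2 and squares hairpin 3. CCR1 is higher and CCR2 lower in both knockdown libraries. The XCR1 symbols of the hairpins, both 0 counts, cover each other.

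Among 8 CXC, XC or CX3C receptors 6 were tested, and CXCR2 rose. CXCR2, the neutrophil receptor for CXCL8 and its relatives, had 127, 337 and 206 counts, or 2.05, 5.60 and 3.30 CPM. Both knockdown libraries were above the control, with a ratio of 2.74 under hairpin 2 (2.23 to 3.39) and 1.62 under hairpin 3 (1.29 to 2.03). The log2 fold change was 1.12 ± 0.309 (edgeR adjusted p = 0.0331). The call was lost in DESeq2 (adjusted p = 0.105), with robust empirical Bayes (0.0931 in edgeR) and among genes with a mean CPM of 1 or more (0.108), and the alternatives ran from 0.0118 to 0.481. CXCR1, the other CXCL8 receptor, had 3, 4 and 2 counts, and the CXCR2 pseudogene CXCR2P1, a related sequence, had 0, 22 and 6.

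CXCR4 held most receptor counts in every library. Its share of the counts on all CC, CXC, XC and CX3C receptors was 78.1% in the control (77.0 to 79.2, 95% Wilson interval). With hairpin 2 the share was 74.0% (73.0 to 75.0) and with hairpin 3 78.5% (77.5 to 79.5). It had 4245, 5441 and 5163 counts. Both knockdown libraries were above the control beyond counting error, with ratios of 1.32 (1.27 to 1.38) and 1.21 (1.16 to 1.26). Against the spread modelled between libraries the difference did not pass (log2 0.34 ± 0.132, edgeR adjusted p = 0.138). CXCR3, the receptor of interferon-induced ligands, had 21, 34 and 33 counts (0.69 ± 0.478), and CX3CR1, the fractalkine receptor of monocytes, had 51, 38 and 32 (-0.52 ± 0.397). CXCR5, known from B cells, had 255, 216 and 132 counts (-0.53 ± 0.281). As 88.6% of its exon length overlaps BCL9L on the other strand, and strand use is not given in the sources used here, these reads cannot be assigned to CXCR5 with certainty. BCL9L stood at 0.948 and 0.551 of its control level under hairpins 2 and 3, and CXCR5 at 0.875 and 0.516.

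No atypical receptor passed the test. ACKR4, which takes up CCL19, CCL21 and CCL25, had 222, 111 and 148 counts, below the control under both hairpins (ratios 0.516, interval 0.407 to 0.651, and 0.664, interval 0.536 to 0.821). Its log2 fold change of -0.76 ± 0.259 missed the threshold (edgeR adjusted p = 0.0887). Of the ACKR4 exon length 4.49% overlaps ACAD11 on the other strand, which had 1965, 1340 and 1569 counts and a log2 fold change of -0.42 ± 0.142. ACKR2, the scavenger of inflammatory CC chemokines, had 11, 34 and 13 counts (1.11 ± 0.681), above the control beyond counting error under hairpin 2 (ratio 3.19, 1.58 to 6.98) but not under hairpin 3 (1.18, 0.487 to 2.90). Of the ACKR2 exon length 12.8% overlaps AC099329.1 on the other strand, which had 0 counts. ACKR1, the Duffy antigen, and ACKR3, the second receptor of CXCL12, had 0 counts in all libraries.

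Set out as ligands and receptors, 37 known pairs had both genes in the table, and 8 pairs had both genes at 10 or more counts in some library. Both partners passed the test in 2 pairs. In the pair of CXCL8 and CXCR2 both rose, and in the pair of CCL2 and CCR2 the ligand rose and the receptor fell. CCR1 rose with its ligand CCL7 at no more than 12 counts, but its other listed ligands, CCL3 and CCL5 among them, had no row. CCR8 rose with its ligand CCL1 at no more than 2. CCL22 rose with its receptor CCR4 at no more than 3, and CXCR4 was abundant with CXCL12 at 0. CCL20 was present while its receptor CCR6 had at most 10 counts.

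Per kilobase of merged exon, CXCR4 stood highest, at 30.7, 40.7 and 37.2 CPM per kilobase in the control and under hairpins 2 and 3. CXCL8 followed at 4.99, 11.0 and 8.73, below CXCR4 in every library. In the control CCL20 (2.65), CCR1 (2.15), ACKR4 (1.57) and CCR2 (1.11) came next, and CCL2 stood at 0.292. Under the hairpins CCR1 (6.76 and 4.99) lay above CCL20 (4.31 and 3.54), the CCL2 values (6.15 and 2.96) overlapped with both, and CCR2 stood at 0.0802 and 0.163. The order among these rests on the length used. With the longest transcript as length CCL2 stood at 12.3 and 5.89, CCL20 at 8.19 and 6.73 and CCR1 unchanged, so CCL2 and CCL20 then came before CCR1 by the mean of the hairpins. Of the counts on chemokine ligands with a row, CXCL8 took 64.0% in the control (61.2 to 66.8, 95% Wilson interval). With hairpin 2 it took 54.1% (52.2 to 55.9) and with hairpin 3 59.6% (57.5 to 61.7). The 11 ligands that matched no row, CCL3, CCL4 and CCL5 among them, are missing from these totals. The CCL2 share was 3.27% (2.37 to 4.49), 26.5% (24.8 to 28.1) and 17.6% (16.1 to 19.3).

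The hairpin libraries differed in their distance from the control. Hairpin 2 lay above hairpin 3 beyond counting error in 8 of the 23 tested members and below it in 1, CCR2. The same count was not made over all genes, so these numbers show nothing particular to chemokine genes. The ratio of hairpin 2 to hairpin 3 was 2.08 for CCL2 (1.83 to 2.36), 1.70 for CXCR2 (1.42 to 2.03), 1.35 for CCR1 (1.24 to 1.48), 1.26 for CXCL8 (1.17 to 1.36) and 0.491 for CCR2 (0.264 to 0.882). For these 5 genes the value further from the control was that under hairpin 2, although ARID1B itself stood at 0.433 of the control under hairpin 2 and 0.422 under hairpin 3. CCL22 (0.732, 0.319 to 1.63) and CCR8 (1.63, 0.797 to 3.44) had too few counts to tell the hairpins apart. There is 1 library per hairpin, so a difference between hairpins and one between libraries cannot be told apart.

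Genes that act below chemokine receptors were taken as a list of G protein subunits, kinases, Rac regulators and effectors. Of 59 tested, 20 rose and 1 fell, with a median log2 fold change of 0.20. Over all genes tested, 5.49% were called higher and 3.21% lower. This list and those that follow were chosen with earlier results of these data known, so their counts are no test of a pathway. TIAM1, an activator of Rac, had 249, 19 and 68 counts and fell (-2.50 ± 0.387), with a log2 ratio of -3.54 for hairpin 2 alone and -1.85 for hairpin 3 alone. Among those that rose were the Src family kinases FGR (1.73 ± 0.362) and LYN (0.92 ± 0.134) and the atypical GTPase RHOH (1.40 ± 0.157). The G protein subunit GNG2 (0.88 ± 0.228), the adenylyl cyclase ADCY7 (0.86 ± 0.191) and the phospholipase PLCB2 (0.82 ± 0.193) rose as well. Others that rose were the Rac GTPase RAC2 (0.61 ± 0.164) and the Rac activator PREX1 (0.56 ± 0.144). GNAI2 and GNAI3, the main inhibitory G protein subunits of leukocytes, did not pass (0.14 ± 0.152 and 0.09 ± 0.128), nor did the arrestin ARRB2 (-0.29 ± 0.158).

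Of 30 tested genes that process, bind or present chemokines, 12 rose and 1 fell (median 0.30), where 8.70% of all genes tested were called. CD74, a receptor component for the chemokine-like cytokine MIF, rose by 2.96 ± 0.477 (3.35 for hairpin 2 alone and 2.22 for hairpin 3 alone), while MIF itself had -0.01 ± 0.13. Proteases that trim chemokines moved in both directions. MMP9 rose from 627 counts to 3430 and 2369 (2.23 ± 0.21) and proteinase 3 (PRTN3) from 3363 to 14914 and 13672 (2.11 ± 0.151), while cathepsin G (CTSG) fell from 6837 to 1672 and 2183 (-1.81 ± 0.141). Aminopeptidase N (ANPEP) rose by 0.87 ± 0.175. The heparan sulphate carriers SDC2 (1.85 ± 0.219) and SDC1 (1.51 ± 0.304) and the chemerin receptor CCRL2 (1.72 ± 0.493) rose, and DPP4, a peptidase that inactivates several chemokines, had at most 1 count.

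Of 32 tested NF-kB components and inducers, which act upstream of CCL2, CCL20 and CXCL8 in many cells, 6 rose and 1 fell (median 0.12). The share called over all genes tested was 8.70%. IL1B (2.19 ± 0.47, with 2.53 for hairpin 2 alone and 1.56 for hairpin 3 alone), the cofactor BCL3 (1.27 ± 0.292), the lipopolysaccharide receptor TLR4 (1.08 ± 0.159), TNF (0.91 ± 0.185), CEBPB (0.71 ± 0.174) and IL1RAP (0.52 ± 0.137) rose, and JUN fell (-0.91 ± 0.164). The subunits NFKB1 and RELA had 0.01 ± 0.131 and -0.11 ± 0.127, and the feedback inhibitors NFKBIA and TNFAIP3 -0.07 ± 0.139 and 0.06 ± 0.159, none past the threshold. Among the genes of the 3 lists named here as changed, DESeq2 did not call GNG2, PLCB2, ADCY7 and CCRL2, and edgeR with robust empirical Bayes did not call TIAM1, FGR, GNG2, PLCB2, ADCY7, RAC2, CD74 and CEBPB.

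**Figure D5:**
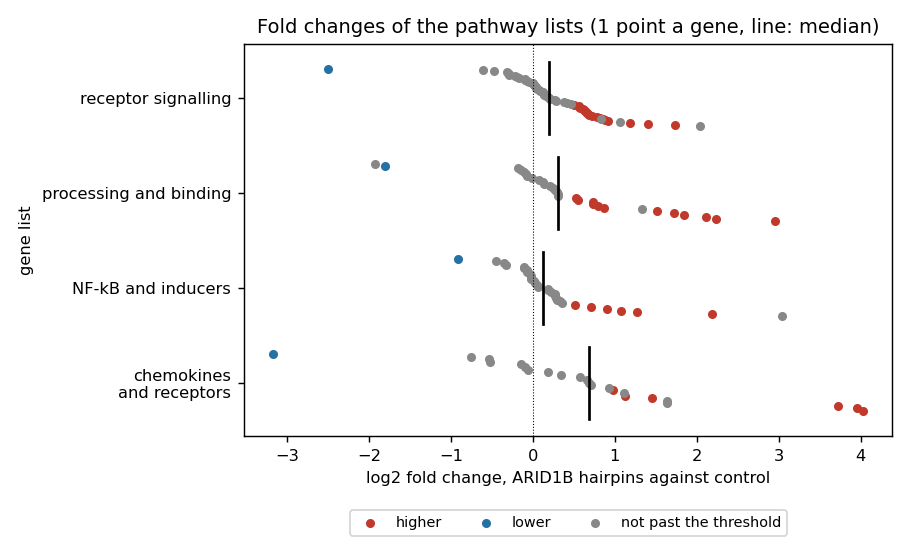
Log2 fold change of every tested gene of the 3 pathway lists and of the chemokines and receptors, 1 point a gene, with the list median as a line. Medians were 0.20, 0.30, 0.12 and 0.69, against -0.01 over all genes tested; the last includes the 8 members that reached the filter through the knockdown libraries alone.

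Several markers of other blood cells were higher as well, where 5.49% of all genes tested were. CLC, IL5RA, CCR3, CD14, CD163 and MMP8 had fewer than 10 control counts and reached the filter through the knockdown libraries alone. The direction of these 6 is therefore no evidence, while EPX, PRG2 and HDC had at least 643 control counts. CCR3, CXCR1, PF4 and PPBP are themselves members, so these lists are not fully separate from the genes followed here. Of 6 tested eosinophil and basophil markers 4 rose, and the list's summed level went from 88.0 CPM in the control to 2132 and 1109 under hairpins 2 and 3, with FCER1A at 0 throughout. Of 6 tested monocyte and macrophage markers 3 rose, FCN1 and CD68 among them, and the summed level went from 32.0 CPM to 74.4 and 51.8, while CD14 had 5, 16 and 13 counts and CSF1R 468, 396 and 290. Of the neutrophil list 0 of 2 tested markers passed in edgeR, and FCGR3B, CXCR1, S100A12 and CD177 had at most 6 counts. Of 5 tested lymphocyte markers (T, NK and B cells) 2 were higher (33.8 CPM to 61.6 and 46.7) with MS4A1 at 0, and the megakaryocyte list 2 of 2 (21.8 CPM to 78.1 and 43.5) with PF4 and GP9 at 0. The epithelial, fibroblast and packaging cell list had 0 of 3 past the threshold in edgeR. The 4 eosinophil and basophil markers, EPX, PRG2, CLC and HDC, were called by DESeq2 as well, but none of them by edgeR with robust empirical Bayes. Of the named monocyte markers CD68 was called by both and FCN1 by neither. CD3D was called by both and NKG7 by neither, ITGA2B by DESeq2 and not with robust empirical Bayes, and GP1BB the other way round. The part of these markers in the chemokine and receptor values was not tested.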

How the data were processed

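Polyadenylated RNA of NB4 cells was sequenced in 3 libraries, 1 with a control hairpin and 2 with different ARID1B hairpins. The authors deposited whole-number read counts per Ensembl gene ID, not normalized. STAR, featureCounts, Cufflinks and build hg19 are named without versions or roles, per the submitters' processing notes. For the annotation release and strand use, nothing is given in the sources used here. Names, lengths, gene order and exon overlaps came from GENCODE 29, which describes another build, so no gene coordinates are given. Promoter sequences are RefSeq's, on GRCh38.p14.

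Counts were filtered with filterByExpr (minimum count 10) and scaled by TMM in R 4.3.3. They were tested in edgeR 4.0.16 by the two-sided quasi-likelihood test (glmQLFit with legacy = FALSE), with Benjamini-Hochberg adjustment over 20382 genes at 0.05. The common biological coefficient of variation was 0.11. Standard errors are the log2 fold change over the square root of F. CPM use TMM-scaled totals. Ratios to the control have exact conditional binomial 95% intervals, which cover counting error only, as do the floors at 3 counts. DESeq2 1.42.0 was an alternative. A few genes are not reported here. Otherwise, named were all tested members, untested ones by count or as partners, and up to 8 called genes per pathway list by size of change, beside others named for context after their values were seen. Members and lists were chosen with earlier results of these data known.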

Additional observations from a re-analysis of the deposited data

How the results depend on the processing

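Among the 23 tested members the log2 fold changes kept their sign in every alternative, except CCR6 (-0.06), which was 0.16 without hairpin 3. Of the pathway genes given as not called, GNAI2 (-0.03), NFKB1 (-0.05) and MIF (0.01) changed sign with hairpin 3 alone. Without a filter on low counts edgeR called 0 genes higher and 0 lower (3218 with an unadjusted p below 0.05, where 4226 had one after filtering), so 0 members (8 of 41 with an unadjusted p below 0.05) and 0 pathway genes passed, while DESeq2 called 775 and 277. When genes needed a mean CPM of 1 or more, 622 genes were higher and 338 lower, 3 members were higher (10 members were tested) and 17 of the pathway genes, against 38 in the main analysis. Against a fold change of 1.5, 325 were higher and 132 lower, 2 members were higher and 9 pathway genes. DESeq2 and robust empirical Bayes left 3 members higher each. CCL2, CCR1 and CXCL8 were those of DESeq2, and CCR1, CCR8 and CXCL8 those with robust empirical Bayes. CCR2 was lower in every alternative but the one without a filter. Upper quartile factors, library size alone and the legacy fit kept all 7 calls. Leaving out a hairpin leaves 1 library against 1 and no test. The log2 ratio of CCL22 was then 2.26 with hairpin 2 alone and that of CCR8 2.40 with hairpin 3 alone, both with a prior count of 2. Levels per kilobase changed with the length used, most for CCL2 and CCL20. No paired analysis was possible because the control group has 1 library and shares no replicate number with the hairpins.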

Other observations

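Relatives that the naming rule left out had few counts. CCRL2, which presents chemerin and is also called an atypical chemokine receptor, had 15, 50 and 48 counts in the control library and under hairpins 2 and 3, with a ratio of 3.44 (exact 95% counting interval 1.90 to 6.60) and 3.19 (1.75 to 6.13). The pseudogene CXCR2P1 had 0, 22 and 6 counts, highest in the library in which CXCR2 was highest. PF4V1, a copy of PF4, had 0, 1 and 0.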
